A study of Mus musculus with 6 samples.

Results

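Voltage-gated sodium and calcium channels open when the membrane depolarises. Sodium channels carry the rising phase of the action potential, and calcium channels turn that electrical signal into transmitter release, dendritic signalling and changes in transcription. Each sodium channel has a pore-forming alpha subunit and smaller beta subunits that adjust gating and adhesion. Most types of calcium channel have a pore-forming alpha1 subunit with an alpha2delta and a beta subunit. Most of the brain genes named as calcium channel gamma subunits encode TARPs, membrane proteins best known for carrying AMPA-type glutamate receptors to synapses.

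The genes described here are the rows of the deposited table whose symbol starts with Scn and a digit, Cacna, Cacnb or Cacng. There were 32 of them among 14250 rows, and 32 of 32 passed the filter on low counts. They comprised 6 sodium alpha, 4 sodium beta, 8 calcium alpha1, 4 alpha2delta, 4 calcium beta and 6 TARP gamma genes. Of the 40 protein-coding mouse genes in GENCODE M21 that match the same rule, the other 8 are not analysed here. They include Scn4a, Scn10a, Scn11a, Cacna1f and Cacna1s, which are best known from skeletal muscle, peripheral neurons and retina. The measured genes are long, with a median span of 114 kb in GENCODE M21 beside 26.1 kb for rows found there.

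RNA came from the anterior cingulate cortex (ACC), a frontal region involved in mood and pain, of C57BL/6 mice on postnatal day 45. The LPS group had received lipopolysaccharide, a bacterial endotoxin, at 50 µg per kg into the peritoneum on postnatal day 14. The control group had received pyrogen-free saline on the same day. Each group held 3 libraries, each from 1 mouse, and no genetic change is named for either group. The tissue was bulk cortex dissected by hand, so fewer cells of a type and less RNA per cell cannot be told apart.

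LPS libraries held 36168687 to 41270737 counts in all, against 37416194 to 39804999 in saline libraries. Defining genes of cortical excitatory neurons were abundant, with a summed level of 2300 to 2469 FPKM in LPS and 2247 to 2534 FPKM in saline libraries over 9 genes. Markers of striatum summed to 66.4 to 72.1 FPKM in LPS and 68.4 to 71.0 FPKM in saline libraries over 8 genes, and those of thalamus to 23.2 to 25.9 and 22.1 to 25.9 FPKM over 6 genes. FPKM is the authors' count per length and sequencing depth and is used below to set one gene beside another. CPM is a count scaled to library size with TMM factors, computed here, and is used to set one library beside another.

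None of the channel genes passed the test between LPS and saline mice. edgeR's quasi-likelihood test, adjusted over all 14250 rows, called 0 of the 32 genes, where 0.288% of all rows were called (14 higher and 27 lower in LPS mice). DESeq2 also called 0 (0.982% of all rows), as did limma-voom (0.239%) and limma on the FPKM values (0 of 29 genes, 0.233%). At an unadjusted p under 0.05 in edgeR there was 1 channel gene, Cacng4, where 7.17% of all rows reached that level. The median log2 change of the 32 genes, LPS over saline, was -0.0012, beside 0.0014 over all rows, with 16 genes above 0 and 16 below. A total of 18 genes lay within 0.1 of 0. The error was small for part of the genes and large for others. The standard error (SE) of the log2 change was under 0.1 for 16 genes, whose changes ran from -0.10 to 0.24, and over 0.2 for 10.

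**Figure D1:**
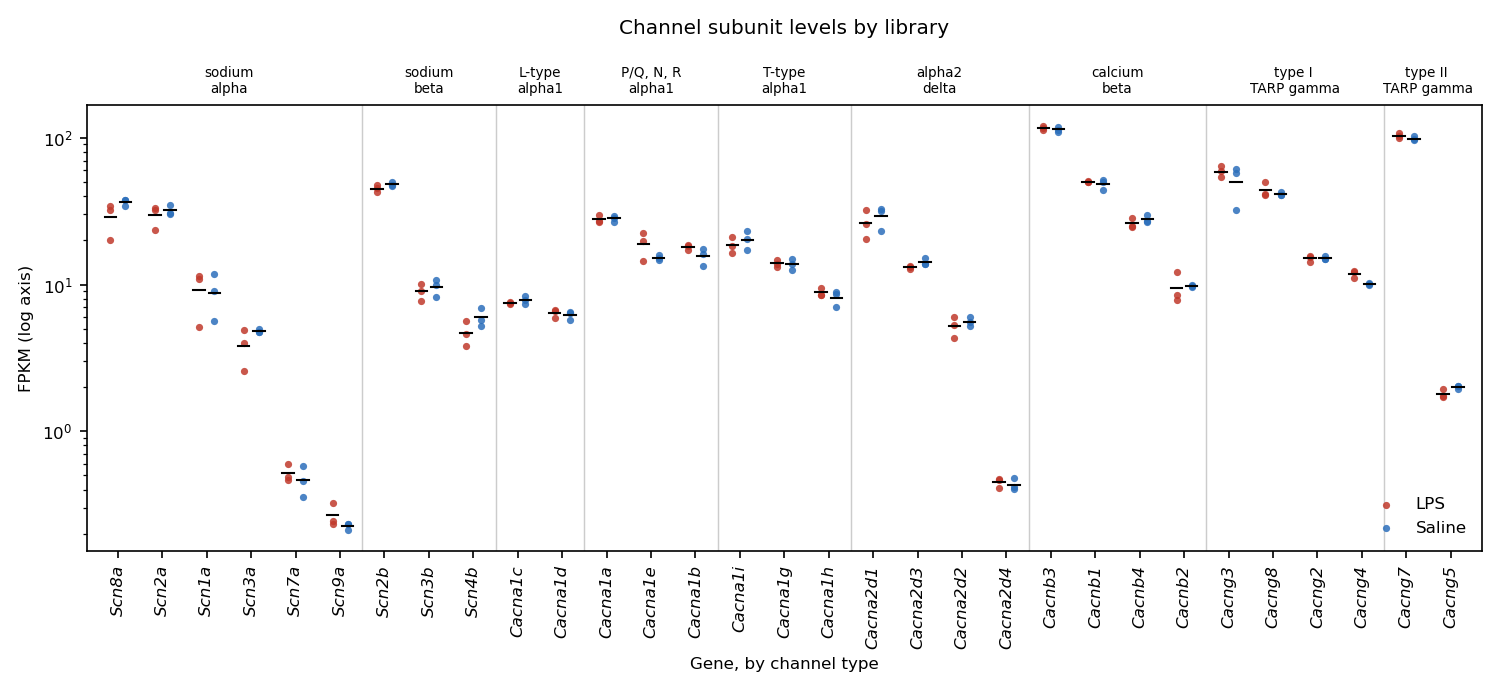
FPKM (log axis) of the channel genes described here in each library, LPS (red, left of each pair) and saline (blue), with the group mean as a bar (3 libraries each). Genes are ordered by level within a type, and run from Cacnb3 at a mean of 116 FPKM to Scn9a at 0.246 FPKM.

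Among sodium alpha genes, Scn8a and Scn2a stood highest. Scn8a encodes the main sodium channel of the axon initial segment and nodes of Ranvier in mature neurons. It had 34.3, 32.4 and 20.2 FPKM in LPS 1, 2 and 3, against 37.9, 37.8 and 34.3 FPKM in saline 1, 2 and 3. Scn2a, a channel of excitatory neurons that dominates early in development, averaged 29.7 ± 5.28 FPKM in LPS and 32.0 ± 2.63 FPKM in saline mice (SD, n = 3 each). The levels of this pair overlapped in LPS mice, and in saline mice only the highest Scn2a library, at 35.0 FPKM, reached the range of Scn8a. Scn1a, the main channel of fast-spiking interneurons, followed at 9.16 ± 3.48 FPKM in LPS and 8.79 ± 3.08 FPKM in saline mice. Scn3a, which is most active before birth, had 3.81 ± 1.17 FPKM in LPS and 4.82 ± 0.143 FPKM in saline mice. Scn7a, an atypical sodium-sensing channel, averaged 0.491 FPKM over all libraries and Scn9a, best known from sensory neurons, 0.246 FPKM.

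The sodium alpha genes had log2 changes from -0.39 to 0.26 and none was called. Scn8a was lower in LPS 3 than elsewhere, at 192 CPM, beside 347 and 303 CPM in LPS 1 and 2 and 390, 378 and 337 CPM in saline 1, 2 and 3. Its groups overlapped in CPM, since LPS 1 lay above saline 3. In FPKM they did not, by a very narrow gap, with LPS 1 at 34.29 and saline 3 at 34.3 FPKM. The log2 change was -0.39 (SE 0.239, edgeR adjusted p = 0.799). Leaving out 1 library at a time moved it between -0.57 and -0.18. In Scn3a it was LPS 1 that stood low, at 23.0 CPM, against 35.6 and 45.7 CPM in the other LPS libraries and 41.9 to 45.8 CPM in saline libraries (log2 -0.34, SE 0.257, edgeR adjusted p = 0.824).

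Scn1a split within both groups. It had 102, 47.8 and 97.5 CPM in LPS 1, 2 and 3, against 46.5, 104 and 80.1 CPM in saline 1, 2 and 3. LPS 2 and saline 1 thus lay at less than 50 CPM and the other 4 libraries at 80.1 CPM or more. The log2 change of 0.10 had an SE of 0.458, and its sign turned without LPS 1, LPS 3 or saline 1. Markers of fast-spiking interneurons, summed over 7 genes, ran from 78.2 to 87.5 FPKM in LPS and from 80.7 to 86.1 FPKM in saline libraries. Of these markers only Tac1 was, like Scn1a, lowest in LPS 2 within the LPS group and in saline 1 within the saline group. Pvalb and Kcnc2 were lowest in LPS 2, but in saline 3 and saline 2 within the saline group. Syt2 was lowest in saline 1, but in LPS 1 within the LPS group. Kcnc1, Cox6a2 and Plcxd3 were lowest in other libraries in both groups. Kcnc2 had 108, 74.4 and 95.8 CPM in LPS 1, 2 and 3, against 92.6, 92.5 and 99.8 CPM in saline 1, 2 and 3. Syt2 had 16.6, 17.9 and 18.8 CPM in LPS libraries, against 7.62, 22.2 and 8.94 CPM in saline libraries. The part of these cells in the Scn1a values was not tested.

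Scn9a had 2.62, 3.58 and 2.55 CPM in LPS libraries, against 2.36, 2.47 and 2.47 CPM in saline libraries, so that the groups did not overlap. The difference was not called (log2 0.26, SE 0.203, edgeR adjusted p = 0.822). Scn3a, Scn2a, Scn1a, Scn9a and Scn7a lie in one stretch of chromosome 2 (chr2:65457118-66784914, GRCm38, GENCODE M21), and Scn8a lies on chromosome 15 (chr15:100869858-101045938). The lowest LPS library was LPS 3 for Scn2a, Scn9a and Scn7a, LPS 1 for Scn3a and LPS 2 for Scn1a.

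Among sodium beta genes, Scn2b averaged 45.0 ± 2.36 FPKM in LPS and 48.4 ± 1.33 FPKM in saline mice (SD, n = 3 each). Scn3b, a beta subunit of developing and adult neurons, averaged 8.96 ± 1.15 FPKM in LPS and 9.64 ± 1.34 FPKM in saline mice, and Scn4b 4.68 ± 0.902 and 5.96 ± 0.895 FPKM. Scn2b, Scn3b and Scn4b had log2 changes below 0, also under RLE scaling and in FPKM, although Scn3b turned positive without LPS 2, saline 2 or saline 3. None was called. Scn2b, whose product is disulfide-linked to the alpha subunit, had 237, 222 and 230.0 CPM in LPS, against 247, 250 and 239 CPM in saline libraries. The Scn2b groups did not overlap in CPM, by a narrow gap, but did in FPKM (log2 -0.10, SE 0.053, edgeR adjusted p = 0.761).

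Scn4b, linked to resurgent sodium current in neurons that fire fast and abundant in striatum, had the largest beta difference. It had 30.0, 21.3 and 25.2 CPM in LPS, against 32.2, 37.2 and 27.7 CPM in saline libraries. LPS 1 lay above saline 3, and the log2 change of -0.34 (SE 0.15) was not called in edgeR (adjusted p = 0.703, unadjusted p = 0.0529). DESeq2 gave it an unadjusted p of 0.0197 and an adjusted p of 0.526. Of 8 striatal markers 2, Rgs9 and Pde10a, had an unadjusted p under 0.05, both with log2 changes above 0 (0.35 and 0.30). Their part in the Scn4b values was not tested. Scn4b and Scn2b are neighbours on chromosome 9 (chr9:45117782-45154152).

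L-type alpha1 genes couple depolarisation to transcription in neurons, and both measured members had log2 changes within 0.1 of 0. Cacna1c had 98.7, 104 and 97.2 CPM in LPS, against 108, 109 and 97.4 CPM in saline libraries (log2 -0.07, SE 0.0631). Cacna1d averaged 53.8 ± 2.99 CPM in LPS and 53.5 ± 3.32 CPM in saline mice (log2 0.01, SE 0.0714). Its exons overlap 589 bases of Chdh, another row of the table on the opposite strand. No label says that the library kit marks strand, so reads there cannot be assigned to either gene. On the FPKM scale, which accounts for length, Cacna1c took 53.8 ± 1.29% of the L-type sum in LPS and 55.8 ± 3.19% in saline mice.

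P/Q-, N- and R-type alpha1 genes encode the channels that trigger transmitter release, with the R-type also found in dendrites and spines. Cacna1a, the P/Q-type gene, had 214, 253 and 222 CPM in LPS, against 247, 230.4 and 216 CPM in saline libraries (log2 -0.01, SE 0.077). Cacna1b, the N-type gene, averaged 143 ± 10.8 CPM in LPS and 132 ± 3.65 CPM in saline mice (log2 0.12, SE 0.0656, edgeR adjusted p = 0.762).

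Cacna1e, the R-type gene, showed the largest log2 change of the 32 genes, and it rested on LPS 2 and LPS 3. It had 172, 366 and 320 CPM in LPS 1, 2 and 3, against 203, 161 and 178 CPM in saline 1, 2 and 3. LPS 2 stood at 2.03 times and LPS 3 at 1.77 times the saline mean, while LPS 1 stood at 0.954 times that mean and within the saline range. The log2 change was 0.66 (SE 0.32, edgeR adjusted p = 0.761, DESeq2 adjusted p = 0.641). Without LPS 1, edgeR called it higher in LPS (log2 0.92, SE 0.106, adjusted p = 0.0191), where 0.344% of all rows were called. That call leaves out the LPS library that lay within the saline range, and the adjusted p over the 6 fits that each lack 1 library ran from 0.0191 to 0.926. In the authors' FPKM the same libraries were higher by less, at 1.48 and 1.30 times the saline mean for LPS 2 and LPS 3, and 0.955 times for LPS 1.

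**Figure D2:**
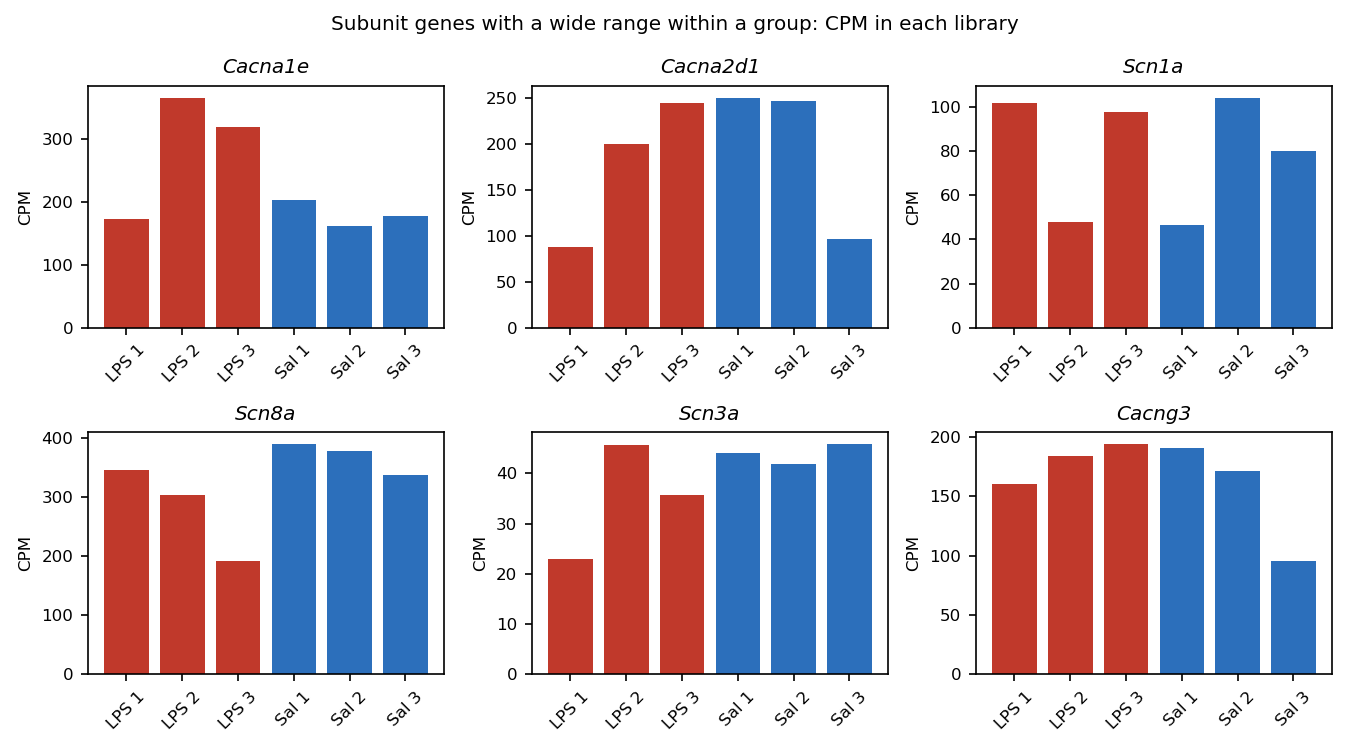
CPM in each library for 6 channel genes with a wide range within a group, LPS in red and saline in blue (Sal), 1 bar per library, axes from 0. The library that stands apart differs by gene: LPS 1 with the saline libraries in Cacna1e, LPS 1 and saline 3 in Cacna2d1, LPS 2 and saline 1 in Scn1a, LPS 3 in Scn8a, LPS 1 in Scn3a and saline 3 in Cacng3.

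T-type alpha1 genes open near the resting potential and shape burst firing. Cacna1i was the highest in FPKM, with 18.3, 16.4 and 20.9 FPKM in LPS, against 20.3, 23.0 and 17.2 FPKM in saline libraries (log2 from counts -0.08, SE 0.112). Cacna1g followed with 13.9 ± 0.74 FPKM in LPS and 13.7 ± 1.13 FPKM in saline mice, and Cacna1h with 8.84 ± 0.561 and 8.14 ± 1.01 FPKM. Log2 changes were 0.02 for Cacna1g (SE 0.0803) and 0.18 for Cacna1h (SE 0.141), and the groups overlapped for each of the 3 genes.

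Alpha2delta subunits bring calcium channels to the membrane, and the products of Cacna2d1 and Cacna2d2 bind gabapentin. Cacna2d1 held most of their summed FPKM, 57.6 ± 6.54% in LPS and 58.8 ± 3.73% in saline mice. Its counts fell into separate levels that did not follow treatment, with 88.3, 200.2 and 244 CPM in LPS 1, 2 and 3, against 250.4, 247 and 96.4 CPM in saline 1, 2 and 3. LPS 1 and saline 3 were thus low and the other 4 libraries high. Its log2 change of -0.16 had an SE of 0.586, the largest of the 32 genes, and the sign turned without LPS 1, saline 1 or saline 2. Cacna2d3 was steadier, at 52.8 ± 0.826 CPM in LPS and 56.6 ± 3.44 CPM in saline mice (log2 -0.10, SE 0.0642), with groups that overlapped in CPM but not in FPKM. Cacna2d2 had a log2 change of -0.04 (SE 0.0998). Cacna2d4, known from retina, averaged 0.442 FPKM over the 6 libraries (log2 0.04, SE 0.184).

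Calcium beta subunits are cytosolic partners that stabilise the alpha1 subunit. Cacnb3 was the highest, with 113, 117 and 121 FPKM in LPS, against 114, 119 and 110.1 FPKM in saline libraries. It took 57.7 ± 1.46% of the summed beta FPKM in LPS and 57.1 ± 0.769% in saline mice. Log2 changes were 0.04 for Cacnb3 (SE 0.0594), 0.08 for Cacnb1 (SE 0.0738), -0.07 for Cacnb4 (SE 0.0666) and -0.01 for Cacnb2 (SE 0.202). Cacnb2 had 48.9 CPM in LPS 2, beside 30.0 and 31.8 CPM in LPS 1 and 3 and 35.0 to 40.7 CPM in saline libraries. This placed LPS 2 above, and the other LPS libraries below, the 3 saline libraries.

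**Figure D3:**
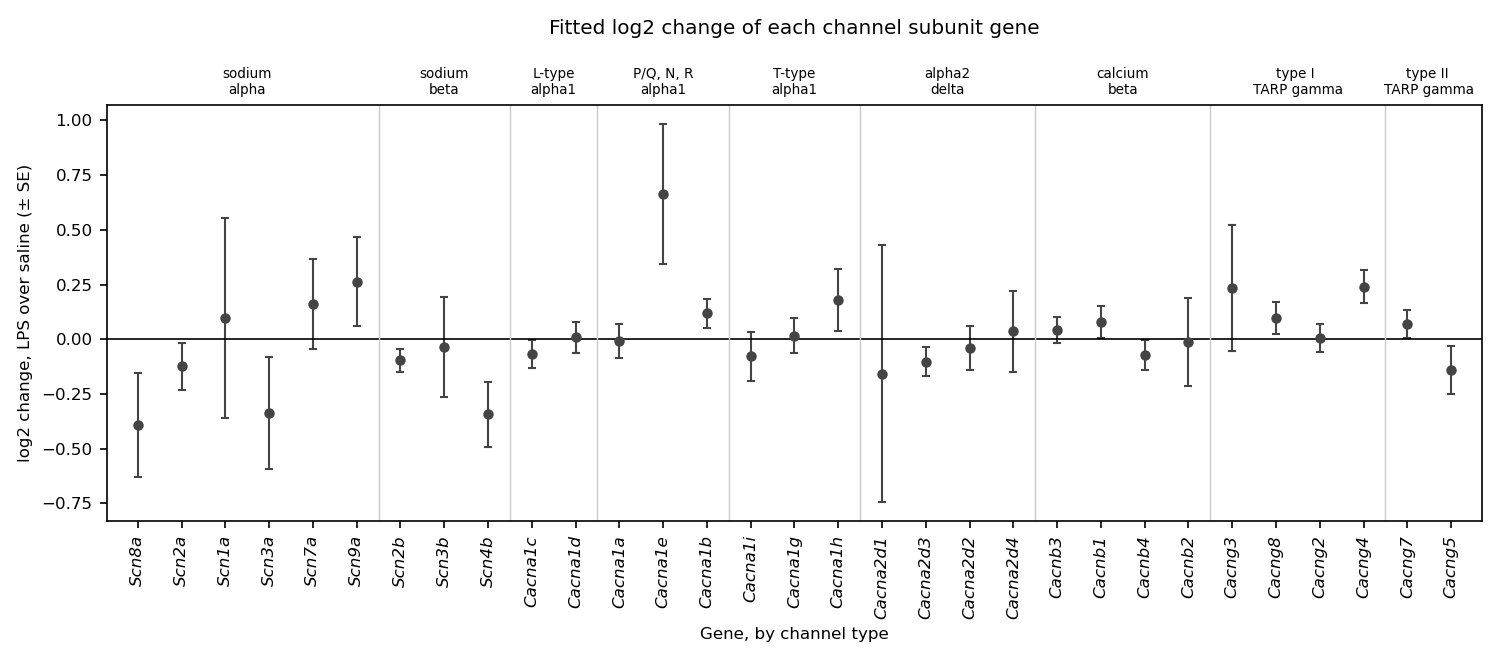
Log2 change of the channel genes described here, LPS over saline, from edgeR, with its SE as the bar (3 libraries each). Changes run from -0.39 in Scn8a to 0.66 in Cacna1e, and the widest bars are those of Cacna2d1 and Scn1a.

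Among type I TARP genes, Cacng4 had the smallest p of the 32 channel genes. Its product is a TARP found in the developing brain and in glia as well as neurons. Cacng4 had 41.4, 48.5 and 46.3 CPM in LPS, against 39.1, 38.1 and 38.2 CPM in saline libraries, so each LPS library lay above each saline library, also in FPKM. The log2 change was 0.24 (SE 0.0744, unadjusted p = 0.00978) and did not pass over all rows (edgeR adjusted p = 0.461, DESeq2 0.348). Leaving out 1 library at a time gave log2 changes of 0.19 to 0.30 and adjusted p of 0.245 to 0.753. Markers of oligodendrocyte precursor cells, which also express Cacng4, had log2 changes above 0 in 5 of 5 genes. Of these Pdgfra, Gpr17 and C1ql1 had an unadjusted p under 0.05, where 7.17% of all rows did, and none was called. Their summed level was 87.0 to 98.0 FPKM in LPS and 77.6 to 89.0 FPKM in saline libraries. Of 8 inhibitory neuron markers 3, Gad2, Lhx6 and Dlx1, also had an unadjusted p under 0.05, with log2 changes of 0.27, 0.25 and 0.33, and none was called. The groups did not overlap in CPM for these markers and for Slc32a1 of the same list, as was found in 13.7% of all rows. That list ran from -0.03 in Pvalb to 0.33 in Dlx1, with a summed level of 430.0 to 502 FPKM in LPS and 416 to 472 FPKM in saline libraries. The part of either cell type in the Cacng4 values was not tested.

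Cacng3, the type I TARP gene with the highest FPKM, had 160.0, 183 and 194 CPM in LPS, against 190.3, 171 and 95.8 CPM in saline libraries. Saline 3 stood alone at 0.535 times the LPS mean, and the log2 change of 0.23 (SE 0.289) became -0.01 without it. Cacng8 averaged 43.9 ± 5.00 FPKM in LPS and 41.3 ± 1.13 FPKM in saline mice (log2 0.10, SE 0.0737). Cacng2, or stargazin, the founding member, averaged 15.1 ± 0.791 FPKM in LPS and 15.2 ± 0.434 FPKM in saline mice (log2 0.01, SE 0.0653). All 4 type I genes had log2 changes above 0 in edgeR, also with RLE scaling, but Cacng2 was below 0 on the FPKM scale. The summed type I FPKM was 127 to 133 in LPS, against 98.4 to 126 in saline libraries. Without Cacng3 it was 68.5 to 74.8 in LPS, against 65.3 to 68.4 in saline libraries, a narrow gap. The median log2 change of the type I genes was 0.165, and 0.0301 without saline 3. The summed P/Q-, N- and R-type FPKM did not overlap either, by a very narrow gap, at 59.4 to 71.05 in LPS, against 58.45 to 59.34 in saline libraries. Without Cacna1e this sum overlapped, at 44.3 to 48.5 in LPS, against 42.5 to 44.6 in saline libraries. The sums of the other channel types overlapped.

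Type II TARP genes were represented by Cacng7 and Cacng5. Cacng7 had 99.1, 103 and 107 FPKM in LPS, against 102, 95.9 and 97.9 FPKM in saline libraries (log2 from counts 0.07, SE 0.0644). Cacng5 was lower by far, at 1.80 ± 0.127 FPKM in LPS and 1.99 ± 0.048 FPKM in saline mice. Its counts gave 6.96, 7.09 and 7.89 CPM in LPS, against 8.09, 8.07 and 8.04 CPM in saline libraries. The Cacng5 groups did not overlap in CPM but did in FPKM, and the log2 change of -0.14 (SE 0.11) was not called (edgeR adjusted p = 0.822). Cacng4 and Cacng5 are neighbours on chromosome 11 (chr11:107732357-107915055) with log2 changes of opposite sign, and Cacng7 and Cacng8 are neighbours on chromosome 7 (chr7:3332955-3415648).

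Counted together, 4 of the 32 channel genes had groups that did not overlap in CPM, Cacng4 and Scn9a higher and Cacng5 and Scn2b lower in LPS. That is 12.5% of them, beside 13.7% of all rows. A range of over 1.5-fold in CPM within a group was found in 9 channel genes (28.1%), beside 18.2% of all rows. The median of the wider within-group range was nearly the same, at 1.22-fold for channel genes and 1.21-fold for all rows. The 9 genes were Scn1a, Scn3a, Scn7a, Scn8a, Scn3b, Cacna1e, Cacna2d1, Cacnb2 and Cacng3, and the fold was chosen after the values were seen. The remaining 23 genes had log2 changes from -0.34 to 0.26, with a median of 0.01.

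For part of these genes the deposited counts and FPKM did not move together. A count divided by its FPKM and by the library total gives the transcript length that the authors' FPKM implies. Its absolute scale is approximate, because the library total used here is the sum of the table. Cacng2, with 1 annotated transcript of 5510 bases, gave 5964 to 6080 bases in the 6 libraries. For Cacna2d1 the implied length was 4410, 7602 and 7699 bases in LPS 1, 2 and 3, against 7657, 7560 and 4220 bases in saline 1, 2 and 3. The libraries with few counts were those with the short length, so that the 2.77-fold range of CPM among LPS libraries was 1.57-fold in FPKM. For Cacna1e the implied length was 12060, 15950 and 16310 bases in LPS 1, 2 and 3, against 12370, 11110 and 11980 bases in saline libraries. The longer value came with the higher counts.

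GENCODE M21 lists 12 transcripts of Cacna2d1 (chr5:15934691-16374511), 8 of them coding and 1272 bases or longer, with a longest transcript of 7436 bases. For Cacna1e (chr1:154390731-154884501) it lists 8 transcripts, the longest of 14921 bases. Over the 6 libraries the implied length ranged by over 1.2-fold in 5 of the 32 genes (15.6%), Cacna1b, Cacna1e, Cacna1i, Cacna2d1 and Scn3b, beside 13.7% of all rows. In the other 27 the range was at most 1.13-fold, so Scn8a, Scn1a, Scn3a and Cacng3 varied in counts and FPKM alike. Which transcripts the authors' FPKM drew on is not given in the sources used here, and the cause was not tested.

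**Figure D4:**
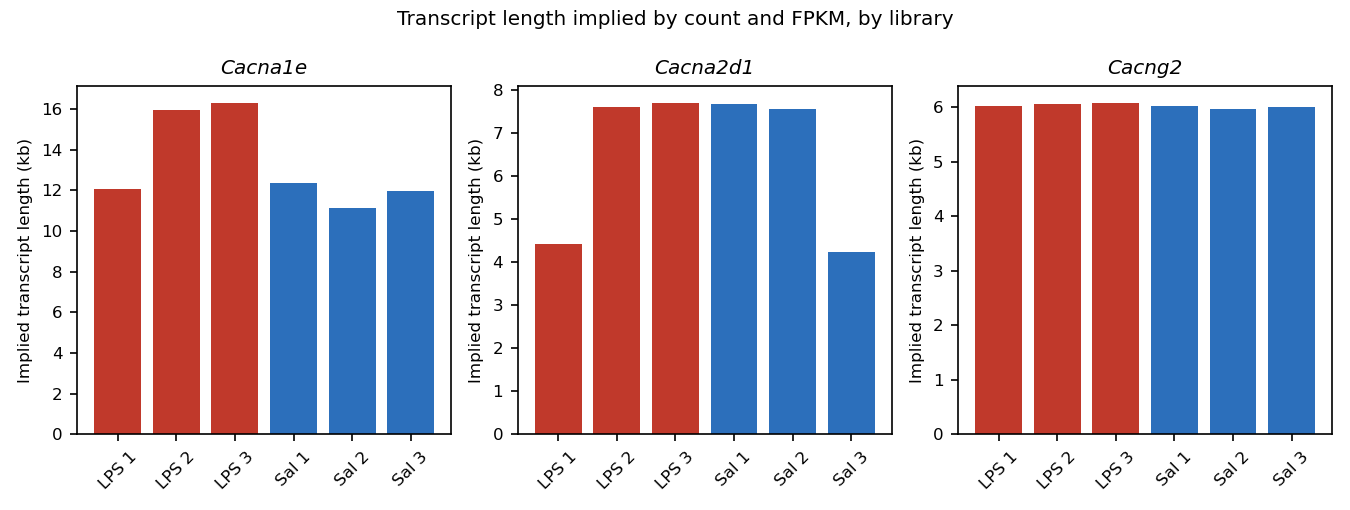
Transcript length in kb implied by the deposited count and FPKM of each library, for Cacna1e, Cacna2d1 and, as a gene with 1 annotated transcript, Cacng2 (LPS red, saline blue, Sal). Cacna1e is longest in LPS 2 and LPS 3 and Cacna2d1 shortest in LPS 1 and saline 3, while Cacng2 stays between 5964 and 6080 bases.

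The makeup of each channel type was compared as the share of each gene in the summed FPKM of its type. Of 32 shares, 5 had groups that did not overlap, and 4 of 32 when shares were taken of summed CPM. For single genes, groups did not overlap in CPM in 13.7% of all rows. Each of the 5 shares had the smallest two-sided p of 0.1 that an exact permutation test allows with 3 against 3 libraries. No share could reach 0.05 in this design, so the shares are given as values. Adjusted over the 32 shares, the smallest p was 0.64 in FPKM and 0.8 in CPM. Cacna1a took 43.0 ± 1.45% of the P/Q-, N- and R-type sum in LPS and 47.8 ± 2.42% in saline mice. The log2 change of Cacna1a itself was -0.01, and that of Cacna1e in the same sum was 0.66. Scn2a took 40.9 ± 2.20% of the sodium alpha sum in LPS and 38.6 ± 0.359% in saline mice, but its share of the summed CPM overlapped. The others were Scn9a, at 0.373 ± 0.0638% and 0.272 ± 0.0166%, and Cacng7 with its complement Cacng5, at 1.71 ± 0.0788% and 1.98 ± 0.109% of the type II sum (SD, n = 3 each). The share of Scn8a was 39.5 ± 4.73% in LPS and 44.3 ± 3.08% in saline mice, with overlapping groups.

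Proteins that bind or regulate these channels were covered by 4 further lists, of which 44 of 46 genes were measured. edgeR called 0 of the 44, DESeq2 and limma-voom also 0, where 0.288% of all rows were called in edgeR. At an unadjusted p under 0.05 in edgeR there were 2 of the 44, a smaller share than the 7.17% of all rows. Among 17 calcium channel partners, Gem, a small GTPase that inhibits calcium channels and is induced by activity, had 2.36, 1.73 and 2.38 CPM in LPS, against 3.85, 3.17 and 2.65 CPM in saline libraries. The groups did not overlap (log2 -0.58, SE 0.222, unadjusted p = 0.0274, edgeR adjusted p = 0.628). Its relative Rrad lay the other way, also without overlap, at 1.93 ± 0.283 CPM in LPS and 1.38 ± 0.108 CPM in saline mice (log2 0.48, SE 0.231, edgeR adjusted p = 0.723). Snap25, a release protein that binds presynaptic calcium channels, averaged 2240.0 ± 84.7 CPM in LPS and 2450.0 ± 131 CPM in saline mice. Its groups did not overlap, by a narrow gap of 2340 CPM in LPS 3 against 2350 CPM in saline 3 (log2 -0.13, SE 0.061, edgeR adjusted p = 0.717).

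The 12 sodium channel partners included Ank3, which anchors channels at the axon initial segment, and the intracellular FGF genes, and had a median log2 change of -0.03 with 0 at an unadjusted p under 0.05. Nrcam (-0.14, SE 0.0719) and Fgf14 (-0.15, SE 0.0799) had the smallest p, with groups that overlapped. Ank3 had the largest change (-0.23, SE 0.132), also with overlap. Of the 12 genes, 9 had log2 changes below 0. Their summed level did not overlap, by a narrow gap, at 541 to 571 FPKM in LPS and 574 to 583 FPKM in saline libraries. The sums of the other partner lists overlapped. Genes of the sodium leak channel NALCN had log2 changes from -0.11 in Unc80 to 0.04 in Fam155a over 4 genes, with the smallest p in Unc80 (SE 0.0741) and Nalcn (-0.06, SE 0.0658). Of 11 AMPA receptor auxiliary genes other than TARPs, Shisa6 had 15.1 ± 1.08 CPM in LPS and 12.3 ± 1.63 CPM in saline mice. Its groups did not overlap, by a narrow gap of 14.4 CPM in LPS 3 against 14.1 CPM in saline 3 (log2 0.30, SE 0.116, unadjusted p = 0.0305, edgeR adjusted p = 0.640). Next was Shisa7 (0.16, SE 0.0771), and the median of that list was 0.10. Of the 44 partner genes, only Gem, Rrad, Snap25 and Shisa6 had groups that did not overlap in CPM. Among all rows, 13.7% had groups that did not overlap.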

How the data were processed

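Libraries of polyadenylated RNA from the anterior cingulate cortex of 6 mice were compared, 3 given LPS and 3 given saline. The authors deposited raw read counts and FPKM per gene. The build GRCm38, DESeq 1.10.1 and TopHat2 2.1 are named, per the submitters' processing notes, without roles. The sources used here give neither the counter nor the annotation. Counts were tested across all 14250 rows with edgeR 4.0.16 in R 4.3.3 (quasi-likelihood, robust, TMM, filterByExpr, treatment only), two-sided, with Benjamini-Hochberg adjustment at 0.05. The filter removed 0 rows. CPM and implied lengths were computed here. FPKM was tested with limma 3.58.1 as log2(FPKM + 1) for genes averaging 0.5 or more, so changes of low genes are understated on that scale. Alternatives were DESeq2 1.42.0, limma-voom, RLE, other filters and pseudocounts, the replicate number as a block, and leaving out each library. The edgeR, DESeq2, limma-voom and FPKM limma tests were also run on simulated counts, scaled to depth only for the last. Shares, implied lengths and fits without 1 library were not simulated, and the outcome is not reported here. Shares were tested by exact permutation. No libraries were near-duplicates (chi-square per degree of freedom at least 32.1).

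Positions and transcripts came from GENCODE M21 (GRCm38), where 32 of 32 identifiers were found. Channel genes and lists were chosen with earlier results of these data known. Values in each library were set for called genes, those at an unadjusted p under 0.05, those whose groups do not overlap and the highest gene of each type, and for the 2 partner genes with the smallest p per list. Cacna1e, Scn1a, Scn3a, Scn4b, Cacnb2, Rrad and other genes beyond that rule were chosen after their values were seen. With 3 mice per group, cage, litter and sex could not be taken into account. Values of 1 channel gene count in the totals and are not reported here.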

Additional observations from a re-analysis of the deposited data

How the results depend on the processing

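No alternative that kept the 6 libraries called a channel gene or a partner gene, and leaving out 1 library gave 0 to 1 channel genes higher (Cacna1e without LPS 1) and 0 lower. At an unadjusted p under 0.05 the count of channel genes was 3 of 32 with DESeq2 (Cacna1e, Scn4b and Cacng4). In that fit 938 of 14250 rows reached the same level. The count was 2 with the replicate number as a block (Scn8a and Cacng4) and 1 to 3 without 1 library. The share of all rows at that level was not counted for the block fit or the fits without 1 library. The block fit called 10 genes higher and 21 lower over the whole table, against 14 and 27 without it. Deviations from the group mean, correlated over genes, gave -0.0266 to 0.0421 for same-numbered LPS and saline libraries. For libraries of different number they gave -0.0597 to 0.0346. Whether mice of the same number were matched cannot be told from these values. Over the whole table, genes higher were 60 with DESeq2, 8 with FPKM under either pseudocount or no filter, 23 at an adjusted p under 0.1 and 14 to 20 without 1 library, and genes lower were 80 with DESeq2 and 22 to 35 without 1 library. The median log2 change of the channel genes was -0.0698 with FPKM at a pseudocount of 0.1, where 3 low genes were not tested. Over all rows of that fit it was -0.00748. At a pseudocount of 1 the channel median was -0.0619 without those 3 genes and -0.0115 with them. Without 1 library, in edgeR, the channel median was -0.0394 to 0.0365. The log2 change of Cacng2 was -0.0037 or -0.00397 in FPKM. The cause of these shifts was not tested.

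Leaving out 1 library turned the sign in 32 of 192 gene and library pairs, in 14 genes, none called. Ranges of the log2 change were -0.0118 to 0.43 for Cacng3, -0.00519 to 0.33 for Scn7a, -0.000147 to 0.135 for Cacnb1, -0.20 to 0.0347 for Cacna1i, -0.49 to 0.17 for Cacna2d1, -0.16 to 0.38 for Scn1a, -0.0937 to 0.0579 for Cacna2d2, -0.23 to 0.10 for Scn3b, -0.0585 to 0.0673 for Cacna1g, -0.022 to 0.14 for Cacna2d4, -0.0416 to 0.055 for Cacna1d, -0.27 to 0.12 for Cacnb2, -0.0819 to 0.0416 for Cacna1a and -0.0389 to 0.0616 for Cacng2. Medians per channel type moved by more than the spread between libraries in 7 of 135 cases. With 3 mice a group and SEs of 0.053 to 0.586, small differences were not detectable, least of all in Cacna2d1, Scn1a and Cacna1e.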
